A study of Mus musculus with 11 samples.

Results

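The expression profile of wild-type CD8 T cells recovered from tumors in wild-type hosts was read from 4 microarrays, out of 11 in the study. These 4 arrays were chosen by their title, WT/WT, in which the genotype of the T cells stands before that of the host, and no measured value entered the choice. Within them, 20259 genes were ranked by mean log2 signal over the 4 arrays, and the spread of each gene was taken as its SD among the same 4 arrays. All levels below are log2 signals in WT/WT arrays unless another group is named. A probe's brightness depends on its own sequence as well as on the amount of RNA, so a rank is a rank of signal and not of transcript number.

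The study compared T cells and hosts that were wild type or knockout for galectin-3, a secreted lectin encoded by Lgals3. The WT/WT group (n = 4) held gal-3 WT T cells from gal-3 WT hosts, the WT/KO group (n = 3) gal-3 WT T cells from gal-3 KO hosts, and the KO/KO group (n = 4) gal-3 KO T cells from gal-3 KO hosts. T cells of all groups came from T cell receptor transgenic donors bearing the congenic marker Thy1.2, so they carry an engineered receptor, which the labels do not name. All hosts received NT2.5 mammary tumor cells on day 0, injected on both sides, cyclophosphamide at 100 mg/kg on day 8, a vaccine secreting GM-CSF on day 9 and the transferred T cells 1 day later, on day 10. Tumors were taken 5 days after the transfer, and T cells were sorted on Thy1.2. The labels give neither the age of the animals nor whether an array stands for 1 mouse or several, so spreads and p-values refer to these samples. The design names 4 replicates per group, and the fourth WT/KO array was not analysed here.

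CD8 T cells recognise peptides on class I molecules through the T cell receptor and its CD3 chains, with CD8 as coreceptor. After activation they divide, kill target cells by releasing perforin and granzymes, and secrete cytokines such as interferon gamma and chemokines. In tumors, repeated stimulation through the receptor is known to raise inhibitory receptors such as PD-1, encoded by Pdcd1, and transcription factors of the Nr4a family.

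A level for unexpressed genes was taken from 1009 olfactory, vomeronasal and taste receptor genes, which T cells are not known to use. Their median signal was 3.37, and the 95th percentile, 5.51, was used as the silent-gene level. Of all genes, 9155 (45.2%) had a mean signal above that level, a share against which the gene lists below are read. The median of all genes was 5.34. Few genes reached high signals: 1429 (7.05%) were over 8, 332 (1.64%) over 10 and 79 (0.390%) over 12. With the 99th percentile of the receptor genes as the level, 3860 genes lay above it, so the number of genes counted as present depends on where the level is set.

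In WT/WT arrays 1 and 4 the values spanned less of the scale. The slope of an array on the mean of all arrays was 0.965 and 0.945 in these arrays, 1.003 and 1.004 in WT/WT arrays 2 and 3, and between 0.985 and 1.03 in the KO-host arrays. Between pairs of WT/WT arrays the correlation over genes ran from 0.966 for arrays 3 and 4 to 0.976. These are descriptions, with n = 6 pairs formed from the same 4 arrays, so the pairs are not independent.

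The markers of the label were bright in every array. Cd8a, the alpha chain of the coreceptor, had signals of 10.92, 11.07, 11.01 and 11.02 in WT/WT arrays 1 to 4, and Cd3g, a CD3 chain, had 10.68, 10.77, 10.56 and 10.56. Thy1, the gene of the sort marker, had 9.67, 10.12, 10.26 and 9.88. Gzmb, which encodes granzyme B, had 11.50, 11.40, 11.34 and 11.14. All 4 genes thus lay far above the silent-gene level in each array, between the 98.3rd and the 99.4th percentile of genes, and Cd8a varied least of them (SD 0.06). A second row that names Cd3g had a mean of 4.25, below the level, while Cd8a, Thy1 and Gzmb are each named by 1 row.

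Of the 15 measured genes of the T cell receptor complex and T cell identity, 15 were above the level, with a median signal of 9.18. After Cd8a the brightest were the CD3 chains Cd3d at 10.73 ± 0.23, Cd3g at 10.64 ± 0.10 and Cd3e at 10.34 ± 0.09 (SD, n = 4). The adaptor Lat was at 9.22 ± 0.11 and the kinase Zap70, which binds the phosphorylated receptor chains, at 8.49 ± 0.13. The dimmest, and the most variable, was Cd247, which encodes the zeta chain, with 6.38, 7.30, 6.57 and 6.33. Its array 2 stood apart from the other WT/WT arrays. The median SD of this list was 0.126, against 0.209 for all genes above the level.

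**Figure D1:**
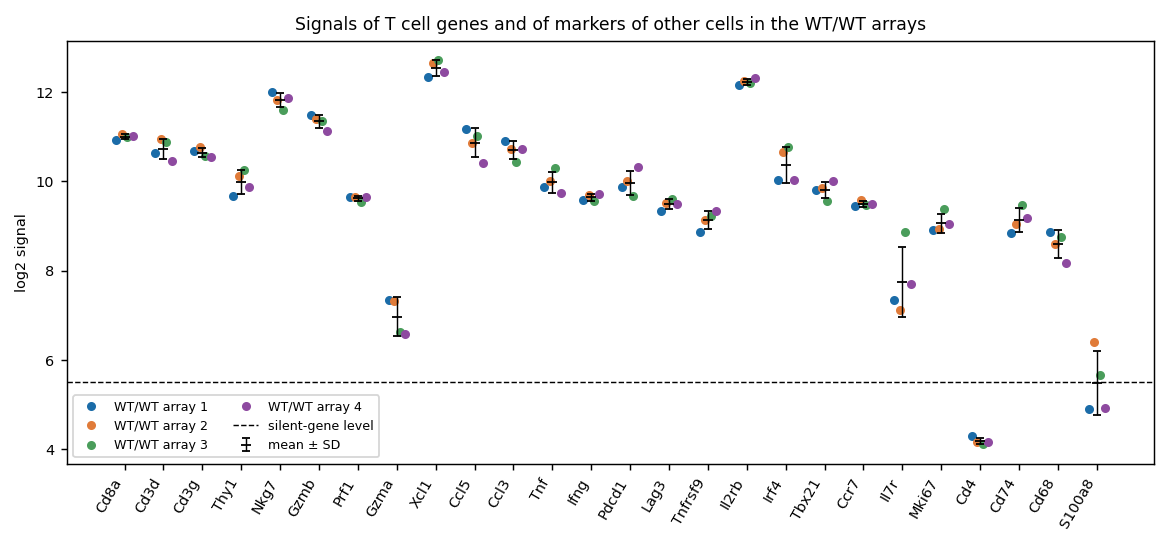
Log2 signals of T cell genes and of markers of other cells in the 4 WT/WT arrays, with 1 point per array, the mean and the SD, and the silent-gene level as a dashed line. Cd8a lies between 10.92 and 11.07, Gzma and Il7r spread more widely, and Cd4 lies below the level in each array.

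Of the 16 measured genes of cytotoxic granules, 13 were above the level. Nkg7, a granule membrane protein needed for degranulation, had 11.998, 11.83, 11.61 and 11.86. Prf1, the gene of perforin, was at 9.63 ± 0.06 and the cathepsin genes Ctsd and Ctsw at 9.86 ± 0.06 and 9.85 ± 0.28 (SD, n = 4). The granzymes were not uniform. Gzmb was bright in each array, whereas Gzma, the gene of granzyme A, had 7.36 and 7.33 in arrays 1 and 2 and 6.62 and 6.58 in arrays 3 and 4, the widest spread of the list (SD 0.43). Gzmk, at 5.18, Gzmd, at 4.19, and Gzmn, at 3.76, were below the level.

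Secreted effector genes ran from the brightest signals to the dimmest. Of 21 measured cytokines, chemokines and death ligands, 13 were above the level. Xcl1, a chemokine that attracts cross-presenting dendritic cells, had 12.34, 12.66, 12.72 and 12.45 and ranked 36th of all genes. The chemokine Ccl5 had 11.18, 10.87, 11.01 and 10.42, and Ccl3, another chemokine, had 10.91, 10.73, 10.44 and 10.73. Tnf, the gene of tumor necrosis factor, was at 9.99 ± 0.23, Ifng, that of interferon gamma, at 9.64 ± 0.08, and Fasl, a death ligand, at 9.27 ± 0.22 (SD, n = 4). Cytokines of other helper states lay on either side of the level. Il4 at 3.69, Il5 at 4.68, Il17a at 4.42 and Il21 at 3.63 were below it, as was Il2 at 5.25. Il10, the gene of a suppressive cytokine, had 5.92, 7.44, 5.97 and 6.20, above the level in each array, and Il13, a type 2 cytokine gene, had 5.43, 5.94, 5.39 and 6.55, above it in arrays 2 and 4. Ccl9 varied most in this list, with 5.57, 7.03, 4.65 and 6.33, so that its arrays lay on both sides of the level.

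Sequences just before the start of 5 of these genes are shown because they include the brightest chemokine, granzyme and coreceptor genes and 2 cytokine genes that carry the motif searched for. Each holds the 100 bases before the RefSeq gene start on GRCm38.p6, 5′ to 3′ on the gene's own strand, with the motif TATAA in capitals where it occurs.
Xcl1, chr1:164935523-164935622, minus strand: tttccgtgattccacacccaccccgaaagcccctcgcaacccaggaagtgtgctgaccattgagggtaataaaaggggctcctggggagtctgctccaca
Ccl3, chr11:83649379-83649478, minus strand: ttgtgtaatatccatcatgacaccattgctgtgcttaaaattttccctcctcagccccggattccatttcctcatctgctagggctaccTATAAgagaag
Tnf, chr17:35202008-35202107, minus strand: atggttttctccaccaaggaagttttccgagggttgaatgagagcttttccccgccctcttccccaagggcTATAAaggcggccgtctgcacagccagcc
Gzmb, chr14:56262335-56262434, minus strand: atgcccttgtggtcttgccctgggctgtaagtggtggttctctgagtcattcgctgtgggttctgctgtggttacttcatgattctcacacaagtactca
Cd8a, chr6:71373327-71373426, plus strand: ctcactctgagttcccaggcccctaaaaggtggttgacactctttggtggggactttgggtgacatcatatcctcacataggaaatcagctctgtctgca

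The letters TATAA, or TTATA as its form on the other strand, were searched in the 50 bases before the start of genes with 1 entry in the promoter table. The 2 forms overlap where TTATAA occurs. Of 10 effector cytokine, chemokine and death ligand genes above the level, 4 (40.0%) held the motif, as did 2 of 9 granule genes and 0 of 8 T cell identity genes. The share was not particular to effector genes, since 2 of 4 naive and memory genes and 2 of 9 glycolysis genes above the level held it. Counts were 0 of 8 for costimulatory receptors, 0 of 15 for cytokine receptors and 0 of 23 for proliferation genes. Olfactory, vomeronasal and taste receptor genes had 106 of 845 (12.5%). Among all genes above the level the share was 230 of 5857 (3.93%), and over all genes with 1 entry it was 877 of 13032 (6.73%). The motif began at -29 in Tnf and at -11 in Ccl3, counted from the gene start. A match describes the letters in this window and is not a binding site, and the list was chosen after its signals were seen.

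Receptors that restrain or sustain T cells were mostly above the level. Of 13 inhibitory receptors, 10 were above it, led by Pdcd1 with 9.87, 10.01, 9.67 and 10.32 and Lag3, a receptor of class II molecules, with 9.34, 9.52, 9.60 and 9.50. Nt5e, which encodes the adenosine-producing enzyme CD73, followed in brightness at 8.32 ± 0.30, and Cd96 was next at 7.88 ± 0.18 (SD, n = 4). Havcr2, which encodes TIM-3, had 7.28, 7.57, 8.09 and 6.86, and Tigit was at 6.999 ± 0.19 (SD, n = 4). Klrg1, a marker of terminal effector cells, at 4.40, Btla, at 4.34, and Cd200r1, at 3.53, were below the level. All 15 measured costimulatory receptors and activation markers were above it, among them Tnfrsf1b, a receptor of tumor necrosis factor, at 10.09 ± 0.10, Cd27 at 9.81 ± 0.17, the surface glycoprotein gene Cd52 at 9.68 ± 0.25, Tnfrsf9, which encodes 4-1BB, at 9.14 ± 0.20 and Icos at 9.06 ± 0.25 (SD, n = 4). Klrd1, the CD94 chain of lectin-like receptors, spread most, with 8.93, 8.71, 9.03 and 8.07, and Slamf6, a receptor of the SLAM family, was the dimmest, with 5.16, 5.92, 5.92 and 5.44, below the level in arrays 1 and 4.

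Cytokine receptors and their signalling genes were above the level in 23 of 24 cases. Il2rb, the beta chain shared by the receptors of interleukins 2 and 15, had 12.16, 12.26, 12.20 and 12.31 and ranked 60th. The kinase Jak1 was at 10.74 ± 0.27, Il18rap, a chain of the interleukin 18 receptor, at 10.49 ± 0.31, the interleukin 21 receptor gene Il21r at 9.17 ± 0.11 and Il2ra, the high-affinity alpha chain, at 9.14 ± 0.12 (SD, n = 4). Jak1 rests on the brightest of 5 rows, the dimmest of which was at 5.91, and Il18rap on the brighter of 2, the other being at 7.66. With the mean of the rows they were at 8.11 and 9.08. Il15ra, at 5.38, was the member below the level. Il7r, which encodes the interleukin 7 receptor that naive and memory cells use, had 7.34, 7.11, 8.86 and 7.70. Array 3 was above the other WT/WT arrays for that gene, and its SD of 0.78 was the largest of the list.

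Of 25 transcription factors of CD8 T cell states, 21 were above the level. Irf4, which acts downstream of the T cell receptor, had 10.03, 10.66, 10.78 and 10.03, with arrays 2 and 3 above arrays 1 and 4. Nr4a3 was at 9.95 ± 0.09, Tbx21, which encodes the effector regulator T-bet, at 9.81 ± 0.19 and Bhlhe40 at 9.68 ± 0.20 (SD, n = 4). The related factor Eomes was at 8.03 ± 0.10 and Tox, a factor of exhausted T cells, at 5.88 ± 0.20, near the level. Eomes and Tox are each named by 3 rows, and with the mean of the rows they were at 6.27 and 5.03, the second below the level. Ikzf2, which encodes Helios, varied most in this list, with 5.82, 6.42, 6.74 and 5.93. Id3, a factor of naive and memory precursors, at 4.88, and Prdm1, which encodes Blimp-1, at 5.34, lay below it.

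Genes of naive and memory cells and of lymphoid homing were not uniformly dim, since 9 of 10 measured members were above the level. Ccr7, which directs cells to lymph nodes, had 9.45, 9.59, 9.46 and 9.49. S1pr1, which lets cells leave tissues, had 8.07, 8.52, 7.64 and 7.70. Dapl1 was at 7.74 ± 0.32 and the quiescence factor Klf2 at 7.13 ± 0.25 (SD, n = 4). Cd55, which encodes an inhibitor of complement, was the dimmest and most variable after Il7r, with 4.87, 5.29, 6.10 and 5.25. Among chemokine receptors and integrins, 17 of 21 were above the level. Cxcr6, a receptor of T cells in tissues, was at 10.59 ± 0.13, Selplg, a selectin ligand, at 10.42 ± 0.11, Itgb2, the beta chain of the integrin LFA-1, at 9.71 ± 0.06 and Cxcr3, the receptor of Cxcl9 and Cxcl10, at 9.70 ± 0.28 (SD, n = 4). Ccr6 was below the level at 3.73, and Cxcr5 had 5.01, 5.45, 6.45 and 6.13, on both sides of it.

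Proliferation genes were above the level in 30 of 32 cases. The brightest were Stmn1, a regulator of microtubules, at 12.49 ± 0.14, Pcna, the sliding clamp of DNA replication, at 11.95 ± 0.17 and Hmgb2, a chromatin protein, at 11.20 ± 0.18 (SD, n = 4). Mki67, a marker of dividing cells, had 8.92, 8.94, 9.37 and 9.05. Rrm2, a subunit of ribonucleotide reductase, had 5.09, 4.52, 4.06 and 5.49, below the level in each array, and Bub1, a checkpoint kinase, was at 5.16. Stmn1, Pcna and Hmgb2 are each named by more than 1 row, and their dimmest rows had means of 6.94, 8.65 and 9.63.

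Genes that supply energy, protein and shape were present in nearly every case. All 22 measured actin cytoskeleton genes, all 22 of the mitochondrial respiratory chain and all 14 of the translation factor list were above the level. So were 15 of 18 glycolysis and hypoxia genes. The medians were 8.86 for actin cytoskeleton, 8.63 for respiratory chain, 10.81 for translation factor and 7.34 for glycolysis genes. Actb, the gene of beta actin, had 12.84, 12.81, 13.10 and 12.88, and Rac2, a GTPase of blood cells, had 12.36, 12.44, 12.30 and 12.47. Actg1, the gene of gamma actin, was at 12.07 ± 0.16 and Myl6, a myosin light chain gene, at 11.87 ± 0.09, while Arpc2, a subunit of the Arp2/3 complex, varied most at 7.23 ± 0.33 and Capzb, a capping protein gene, was the dimmest at 6.66 ± 0.12 (SD, n = 4). Gapdh, a glycolytic enzyme, had 12.12, 12.18, 12.50 and 12.17, with array 3 apart from the others. The glycolytic enzyme genes Pgam1 and Pgk1 were at 11.93 ± 0.16 and 9.43 ± 0.15 (SD, n = 4). Hk1, the first enzyme of glycolysis, was at 11.26 ± 0.09, while its inducible relative Hk2 was at 5.23 ± 0.16 and the kinase Pdk1, which restrains pyruvate oxidation, at 4.81 ± 0.18, both below the level (SD, n = 4). Egln3, an oxygen-sensing hydroxylase gene, varied most there, with 5.60, 5.16, 4.59 and 5.28. The translation factor list was led by Fau at 12.71 ± 0.11, the elongation factor gene Eef1a1 at 12.20 ± 0.36, Npm1 at 12.08 ± 0.25 and Pabpc1, which binds poly(A) tails, at 11.84 ± 0.12 (SD, n = 4). Of these, Fau encodes a ribosomal protein and Npm1 a nucleolar protein, so neither is itself a translation factor. Eif4a2, a helicase of translation initiation, varied most among the translation factors, with 6.06, 6.91, 7.30 and 8.00. Cox7c, a subunit of cytochrome oxidase, did so in the respiratory chain, with 10.28, 9.68, 10.59 and 9.46. The brightest there were Cox5b at 11.22 ± 0.12, Uqcr11 at 10.35 ± 0.38 and the cytochrome c gene Cycs at 10.22 ± 0.40, and the dimmest was Cox7b at 6.98 ± 0.11 (SD, n = 4).

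Signals of genes named by several rows depend on the row. Of the 294 list genes above the level, 63 have more than 1 row, and in 22 of these the dimmest row was below the level. Of the 191 genes examined by name, 40 moved by more than the SD among the arrays when the rows of a gene were averaged. The 191 include genes named by 1 row, which cannot move, so the share among genes with several rows is larger. Among the 40 were Il2rb, at 11.71, Irf4, at 9.54, Actb, at 11.69, Gapdh, at 9.63, and Hk1, at 8.95 as means of rows.

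All 11 measured genes of class I antigen presentation were above the level, led by Pdia3 at 9.24 ± 0.23 followed by Psmb10 at 8.56 ± 0.23, Calr at 8.53 ± 0.08 and the tapasin gene Tapbp at 8.47 ± 0.17, and including B2m, the light chain of class I, at 8.03 ± 0.21 (SD, n = 4). Psmb8, an immunoproteasome subunit, varied most at 8.40 ± 0.29, and the peptide transporter gene Tap2 was the dimmest at 6.75 ± 0.15 (SD, n = 4). The interferon response was mixed, with 13 of 19 genes above it. Ifi27l2a had 8.06, 8.53, 7.91 and 7.94, and Cxcl9, a chemokine induced by interferon gamma, had 7.48, 7.56, 7.65 and 7.36. Bst2, which tethers virions, was at 7.33 ± 0.34 and the GTPase gene Gbp2 at 7.30 ± 0.49 (SD, n = 4). The antiviral genes Mx1, at 3.96, Oasl2, at 4.33, and Usp18, at 4.53, were below the level. Ifit3 had 4.47, 4.59, 6.22 and 4.50, above the level in array 3 alone. Of 9 galectin genes, the galectin-3 binding protein gene among them, 6 were above the level, led by Lgals1 at 10.59 ± 0.11. Lgals3 had 8.49, 8.15, 8.17 and 8.41, and Lgals9 was at 8.41 ± 0.08 (SD, n = 4). Lgals8 was at 6.64 ± 0.09, Lgals4 varied most at 5.45 ± 0.41 and Lgals2 was the dimmest at 4.17 ± 0.17 (SD, n = 4).

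**Figure D2:**
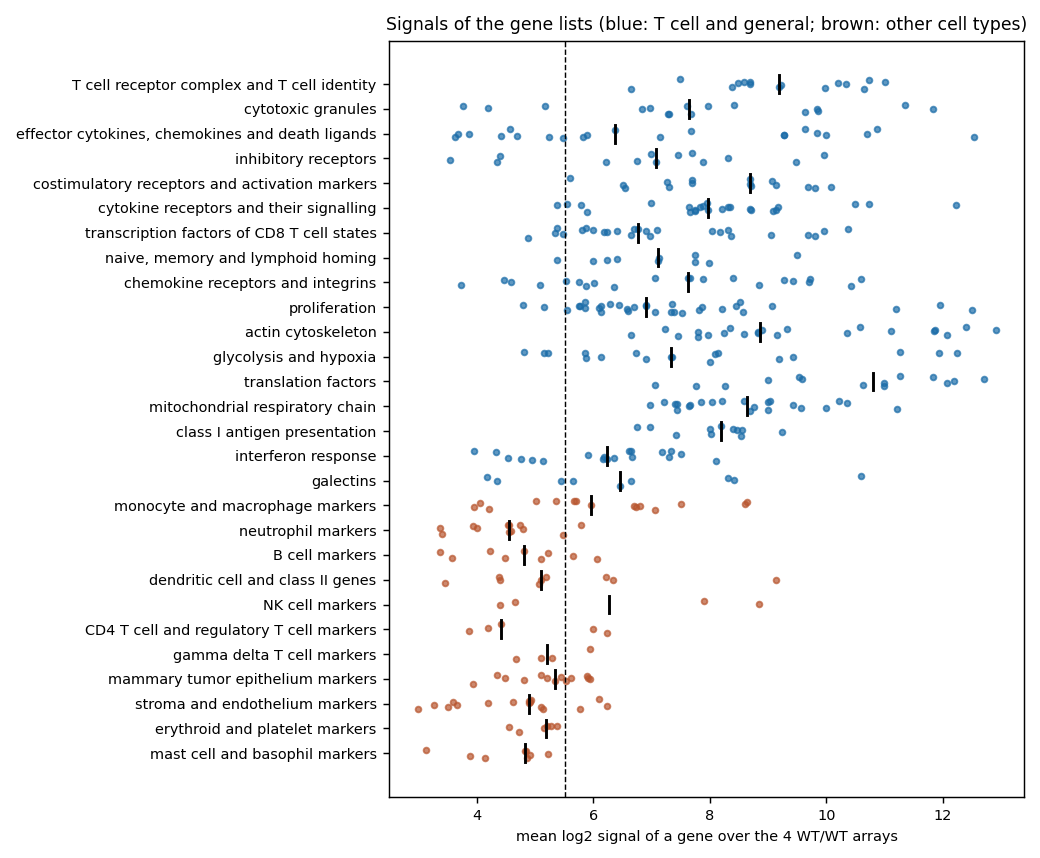
Mean log2 signal of each measured gene over the 4 WT/WT arrays, grouped by gene list, with 1 point per gene, a black bar at each list's median and the silent-gene level as a dashed line. Each T cell or general list (blue) has at least 61.9% of its genes above the level, and the other cell types (brown) have 0% to 66.7%, the highest share being that of monocyte and macrophage markers and the brightest gene Cd74 at 9.14.

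Markers of cell types outside the Thy1.2 gate were not all dim. Of 15 monocyte and macrophage markers, 10 were above the level, a larger share than that of all genes. Ctss, a lysosomal protease, had 8.63, 8.66, 8.62 and 8.64, Cd68 had 8.86, 8.61, 8.76 and 8.17, Apoe, a lipoprotein component, had 7.43, 7.82, 7.51 and 7.24, and the complement gene C1qa had 7.08, 7.46, 6.72 and 6.99. Cd14, a coreceptor for bacterial lipopolysaccharide, varied most, with 6.13, 6.35, 7.31 and 7.01. The receptors Adgre1, at 4.21, Mrc1, at 4.05, Msr1, at 3.95, and Marco, at 5.02, also members of this list, were below the level. The summed picture over the 15 genes was a mean signal of 6.04 to 6.20 per WT/WT array. Among class II and dendritic cell genes, 3 of 9 were above the level. These were Cd74, the invariant chain, at 9.14 ± 0.27, H2-Ab1 at 6.34 ± 0.19 and H2-Aa at 6.22 ± 0.28 (SD, n = 4), while Clec9a, at 3.46, and Xcr1, at 5.18, were not. The part of such cells in these signals was not tested, and in RNA from a pool of cells fewer cells of a type cannot be told apart from less RNA per cell.

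Lists of the remaining cell types were at or under the share of all genes, apart from NK cell markers. Of 4 measured NK cell markers the adaptors Fcer1g, at 8.85 ± 0.09, and Tyrobp, at 7.90 ± 0.57 (SD, n = 4), were above the level, and Ncr1, at 4.41, and Klre1, at 4.65, were not. Both adaptors are used by myeloid cells as well. Cd4 was below the level in every array, with 4.29, 4.17, 4.13 and 4.16. Of 12 neutrophil markers 1 was above it (Elane, at 5.80), and S100a8, a calgranulin, had 4.89, 6.41, 5.67 and 4.93. Ly6g was at 3.37, with 2.74 in array 2. Among B cell markers 2 of 9 were above the level, Cd79b at 6.07 and Ebf1 at 5.65, and Ebf1 ranged from 4.69 in array 1 to 6.98 in array 4. Counts were 5 of 13 for mammary tumor epithelium, the brightest being Cldn4 at 5.94, 3 of 16 for stroma and endothelium, the brightest being Col1a1 at 6.23, 1 of 4 for gamma delta T cells, 2 of 5 for CD4 and regulatory T cells, and 0 of 6 and 0 of 8 for erythroid cells with platelets and for mast cells with basophils. Col6a1, a stromal collagen, had 6.06 in array 4 and 5.64 to 5.71 in the other WT/WT arrays.

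Ranked over all genes, the top 30 ran from AY036118 at 14.06 to Rps25 at 12.70, and Rbm3 followed at 12.65. Ribosomal protein genes were counted by whole symbols, which are Rpl, Rps or Rplp with a number and at most a final a or x, or Rpsa. Pseudogene symbols such as Rps24-ps3 were left out. Ribosomal protein genes made up 16 of the 30, although the 55 measured are 0.271% of all genes. Fau, which also encodes a ribosomal protein, is in the top 30 and was not counted among them. All 55 were above the level, with a median of 11.92, and 28 of them were among the top 100. Rpl37a had 13.61, 13.59, 13.59 and 13.49, Rps18 had 13.63, 13.61, 13.57 and 13.46, and Rpl21 had 13.12, 13.13, 13.10 and 13.08. Ribosomal protein genes have many near-identical processed copies in the genome, so these signals cannot be assigned to 1 locus with certainty. Rn28s1, a gene of the large ribosomal RNA, was at 13.96 ± 0.13 (SD, n = 4). The top 30 had a median SD of 0.0990.

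Several of the remaining genes of the top 30 rest on 1 of several rows. Ptprz1, a phosphatase receptor of the nervous system, was at 13.95 by its brightest row, and its 7 rows reached down to 2.20. Cacna1i, a neuronal calcium channel, was at 13.83, and the dimmest of its 3 rows was at 5.39. Ogdh, an enzyme of the citric acid cycle, was at 13.23 with a dimmest row at 3.11 of 10 rows, and Hnrnpa3, an RNA-binding protein, at 13.14 with 2.89 of 22 rows. Of the 30 genes, 27 have more than 1 row, against 15.3% of all genes, and in 18 of them the dimmest row was over 4 log2 units below the brightest. The median distance between a gene's brightest and dimmest row was 5.91 in the top 30, against 1.47 over all genes with more than 1 row. Taking the brightest row picks such genes by construction. When rows were averaged per gene, 8 of the 30 stayed in the top 30, with the median of the rows 11 did, and among genes named by 1 row 3 did.

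**Figure D3:**
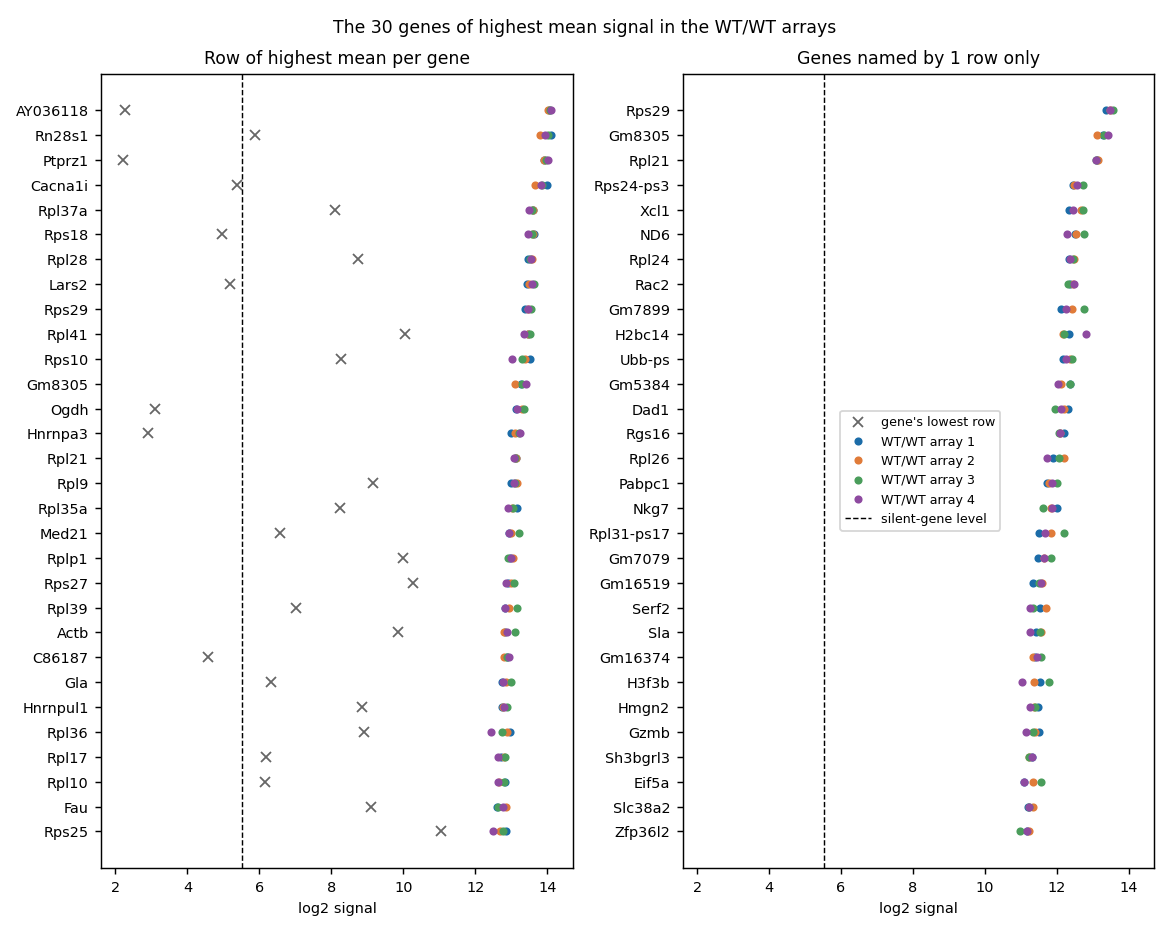
The 30 genes of highest mean log2 signal in the WT/WT arrays, by the brightest row of each gene (left) and among genes named by 1 row only (right), with 1 coloured point per array, the dimmest row of each gene as a cross and the silent-gene level as a dashed line. Crosses for Ptprz1, Ogdh and Hnrnpa3 lie below the level while their brightest rows exceed 13, and Xcl1, Nkg7 and Gzmb appear on the right.

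Among the 17150 genes named by 1 row, the brightest were Rps29, Gm8305, Rpl21 and Rps24-ps3, followed by Xcl1. Genes of T cell function in that top 30, named after their values were seen, were Xcl1, Rac2, Nkg7 and Gzmb, beside Rgs16, a regulator of G protein signalling, at 12.10 and Sla, an adaptor that restrains receptor signalling, at 11.44.

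The ranking was shared with the KO-host arrays. Of the top 30 in WT/WT arrays, 28 were in the top 30 of WT/KO arrays and 29 in that of KO/KO arrays, and of the top 100 the counts were 97 and 96.

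The 4 arrays differed little for most genes. The median SD among the WT/WT arrays was 0.209 over genes above the level, with quartiles of 0.143 and 0.300 and a 90th percentile of 0.423. An SD under 0.5 was found for 8573 genes (93.6%) and one over 1 for 66 (0.721%). In the same genes the median SD was 0.180 among WT/KO arrays and 0.204 among KO/KO arrays. The distance of an array from its group mean averaged 0.297 in WT/WT arrays and 0.286 in KO-host arrays, a difference of 0.0110 (two-sided exact permutation test, p = 0.445, 4 against 7 arrays, where the smallest possible p is 0.00303). The difference was -0.00544 without WT/WT array 3. The slope that stands for the value range averaged 0.979 in WT/WT arrays and 1.01 in KO-host arrays, a difference of -0.0326 (two-sided exact permutation test, p = 0.0424). That difference passed the threshold with all arrays and not without array 1 (exact p = 0.0833) or array 4 (exact p = 0.133).

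The genes of widest spread were outside the lists used here. Olfr331, an olfactory receptor gene, had 4.77, 6.63, 6.18 and 9.74, Slc45a4, a solute carrier, had 7.44, 7.0004, 9.40 and 4.72, and Akap2 had 4.59, 5.52, 8.69 and 4.95. Array 4 was the highest for the first and the lowest for the second, and array 3 the highest for Slc45a4 and Akap2. Trpc2, Dgcr8, Rpl13a-ps1, Kif17, Mthfs, Mnd1 and Ttpal followed, with SDs from 1.85 to 1.44. The 100 most variable genes all had an SD of at least 0.881. Array 3 was the highest for 42 of them, against 28.8% of all genes above the level, and array 4 the lowest for 35, against 29.2%. Of these 100 genes 72 have more than 1 row, against 21.6% of all genes above the level, and 2 are members of a list used here, which together hold 294 genes above the level. Their median SD was 1.06 in WT/WT arrays, which chose them, 0.603 in WT/KO and 0.611 in KO/KO arrays.

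At the other end, Selenof, a selenoprotein of the endoplasmic reticulum, had 6.69, 6.70, 6.69 and 6.70 (SD 0.00744). Dram1, 1110002J07Rik, Flcn and Zfp346 followed, with SDs from 0.0113 to 0.0144. These genes are the extremes of 9155 and are given as a description.

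**Figure D4:**
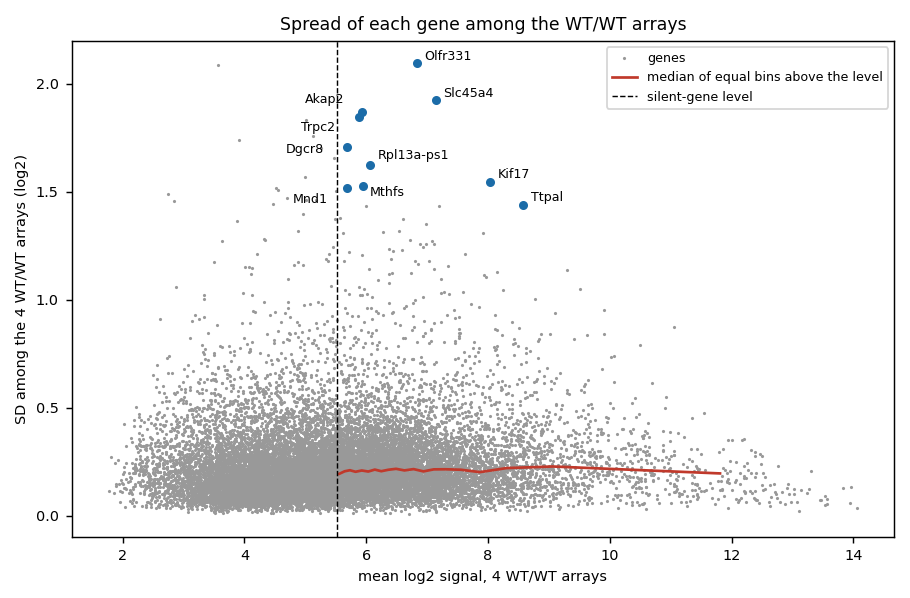
SD of each gene among the 4 WT/WT arrays against its mean log2 signal, with 1 grey point per gene, the 10 most variable genes above the silent-gene level in blue and the median of bins with equal numbers of genes in red. The red line lies between 0.194 and 0.228, around the overall median of 0.209. Its last bin pools all genes from 9.56 to 14.06, at 0.195, and does not resolve the brightest genes. The top 30 alone had a median SD of 0.0990.

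Levels in WT/WT arrays were then set against those in the 7 KO-host arrays, as WT/WT minus the mean of the WT/KO and KO/KO groups, to show where the profile differs. Of 15194 genes tested, 0 (0%) passed limma at an adjusted p under 0.05. At an unadjusted p under 0.05, 792 (5.21%) were higher in WT/WT arrays and 771 (5.07%) lower, and the median difference over all genes was 0.02. WT/WT arrays lay above every KO-host array for 127 genes (0.836%) and below every one for 130 (0.856%). With a filter at the 50th percentile of mean signal, 333 of 10130 genes were higher at an unadjusted p under 0.05 and 626 lower. In the 9 lists of T cell genes 0 entries were higher at that p. In 7 of the lists the share on the low side was above the 5.07% of all genes tested, a share that includes dim genes. On the low side were 5 of 24 cytokine receptor and signalling genes, 3 of 14 granule genes, 3 of 17 effector cytokine and chemokine genes and 3 of 20 chemokine receptors and integrins. The counts were 2 of 15 T cell identity genes, 2 of 15 costimulatory receptors, 2 of 25 transcription factors, 0 of 12 inhibitory receptors and 0 of 10 naive and memory genes. Together these were 20 of 152 entries. Without WT/WT arrays 1 and 4, an alternative chosen after seeing the data, 11 of 154 were lower and 3 higher. Of all 15194 genes, 417 were lower and 279 higher in that setting, against 771 and 792 as reported. Under quantile normalization 699 of all 15194 genes were lower and 530 higher. In that setting 5 of 24 cytokine receptor and signalling genes were lower and 2 higher. Lower there were also 3 of 14 granule genes, 3 of 25 transcription factors, 2 of 17 effector genes and 2 of 20 chemokine receptors and integrins (1 higher). The rest had 1 of 15 costimulatory receptors, 0 of 15 T cell identity genes, 0 of 12 inhibitory receptors and 0 of 10 naive and memory genes (1 higher).

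The interferon response, monocyte and macrophage markers and NK cell markers had the lowest median differences of the 28 lists. Which was lowest depended on the setting: under 21 alternatives it was the interferon response in 11, macrophage markers in 8, NK cell markers in 1 and neutrophil markers in 1. Of the 18 tested interferon response genes, 12 had an unadjusted p under 0.05 on the low side and 0 on the high side, none passed after adjustment, and the median difference was -0.55. The mean signal of the measured genes was 6.08, 6.11, 6.11 and 6.09 in WT/WT arrays, against 6.47, 6.61 and 6.53 in WT/KO arrays and 6.48, 6.63, 6.61 and 6.79 in KO/KO arrays. The groups did not overlap, and the WT/WT arrays lay close together. Monocyte and macrophage markers were low in the same arrays, with 9 of 14 tested genes on the low side, 0 on the high side and a median difference of -0.53. Their mean signal was 6.04, 6.20, 6.20 and 6.08 in WT/WT arrays, against 6.45, 6.43 and 6.93 in WT/KO arrays and 6.56, 6.70, 6.68 and 6.38 in KO/KO arrays. Without WT/WT arrays 1 and 4 the counts were 10 of 18 for interferon response and 6 of 14 for macrophage genes. In that setting 417 of all 15194 genes were on the low side, against 771 as reported. Of 4 NK cell markers 3 were on the low side, with a median difference of -0.45. Their mean signal was 6.37, 6.65, 6.49 and 6.31 in WT/WT arrays, against 6.75, 6.71 and 7.18 in WT/KO arrays and 6.84, 7.23, 7.12 and 6.999 in KO/KO arrays, with no overlap. Of the 28 lists, only interferon response, macrophage and NK cell markers had means without overlap. Granule genes overlapped narrowly, with a highest WT/WT mean of 7.942 and a lowest KO-host mean of 7.937. So did class I genes, with 8.128 and 8.124, and class II and dendritic cell genes, with 5.524 and 5.522. Class II and dendritic cell genes had 3 of 7 on the low side and neutrophil markers 3 of 8, with 1 on the high side. The mean of the neutrophil markers was 4.43 to 4.57 in WT/WT arrays, against 4.41 to 4.63 in WT/KO arrays and 4.73 to 5.08 in KO/KO arrays, so that it overlapped with WT/KO arrays. Without WT/WT arrays 1 and 4 the count was 1 of 4 for NK cell markers. The part of RNA from these cell types in the interferon values was not tested. Proliferation genes had 10 of 32 on the low side and 0 on the high side. The low-side count was 2 without WT/WT arrays 1 and 4 and 5 without WT/WT array 1 alone. Over all 15194 genes it was 417 and 543 in these settings. Against WT/KO arrays alone 3 of 32 proliferation genes were on the low side, and against KO/KO arrays alone 12. Over all genes these counts were 550 and 728. Their mean signal was 7.27 to 7.44 in WT/WT arrays, 7.38 to 7.43 in WT/KO arrays and 7.43 to 7.83 in KO/KO arrays, with overlap. These lists were chosen with earlier results of the same arrays known, so their counts are no independent evidence.

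**Figure D5:**
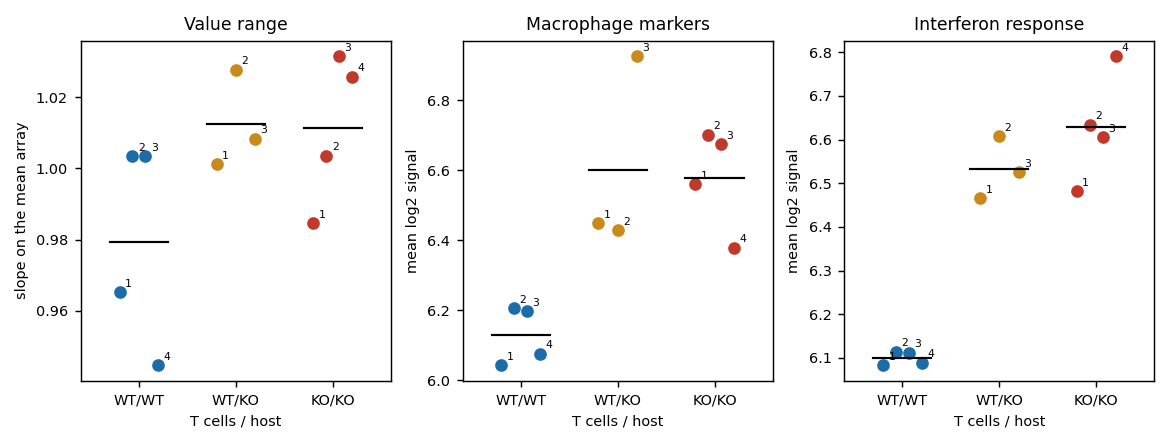
Each array's slope on the mean of all arrays, mean log2 signal of macrophage markers and mean log2 signal of interferon response genes, by group, with 1 numbered point per array and a bar at the group mean. WT/WT arrays lie below all KO-host arrays in the panels of macrophage and interferon genes, and WT/WT arrays 1 and 4 have the lowest slopes.

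Genes with the lowest p were these, none of which passed as fitted. Rps15a-ps2, annotated as a ribosomal protein pseudogene and therefore uncertain, had 6.70, 6.40, 6.63 and 6.10 in WT/WT arrays and 7.39 to 7.95 in KO-host arrays, a difference of -1.16 (SE 0.14; limma adjusted p = 0.0546). It passed in limma with the replicate number as a block (adjusted p = 0.0303) and under quantile normalization, the 50th percentile filter and array weights (adjusted p = 0.0375 to 0.0489). Ier3, an immediate early gene, had 6.50, 6.52, 6.36 and 6.51 in WT/WT arrays and 6.88 to 7.77 in KO-host arrays, and the chemokine Ccl4 had 9.97, 9.94, 9.79 and 9.63 in WT/WT arrays and 10.28 to 10.61 in KO-host arrays. The macrophage markers Itgam and Apoe completed the low side. On the high side were Dbndd1, Ppp1r15b, Cd209e, Cerox1 and Pvalb. Ppp1r15b, which directs dephosphorylation of a translation initiation factor, had 8.31, 8.26, 8.50 and 8.55 in WT/WT arrays and 7.35 to 8.09 in KO-host arrays, a difference of 0.78 (SE 0.14; limma adjusted p = 0.290). Among the genes described above, Gzmb averaged 11.35 in WT/WT arrays, 11.71 in WT/KO and 11.80 in KO/KO arrays, a difference of -0.41 (SE 0.12; limma adjusted p = 0.370). Cd8a averaged 11.004 in WT/WT arrays, 11.09 in WT/KO and 11.05 in KO/KO arrays.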

How the data were processed

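Per the labels' protocols, RNA came from a Nanoprep kit and was amplified by the Ovation Pico WTA system before hybridisation. The authors deposited 1 table of log2 signals for 11 arrays, with values from 1.27 to 14.4 in 115830 rows. RMA, which corrects background, normalizes and summarises probes, is named in the submitters' processing notes, with Partek and the build mm9. Versions are not given in the sources used here. A log2 table holds no detection calls, and amplification of small samples can add spread. The number of arrays limits the precision, and no pair of arrays held more than 21 identical values.

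Rows were named by the platform annotation: 25539 (22.0%) name 1 gene, 2300 several and 87991 none. Rows naming 1 gene were used, 20259 genes in all, each by its row of highest WT/WT mean. Members and the 28 lists (472 entries, 408 measured by exact symbol) were chosen with earlier results of these data known. Members without a row of their own were not analysed here. Named were the top 30, the 10 most and 5 least variable genes above the silent-gene level, per list up to 4 brightest members, the dimmest and the most variable, the 4 label markers, Lgals3, and 5 genes per direction of the contrast. Of 150 list genes this rule picks, 29, all in lists of other cell types, are covered by counts only, and some of the top 30 appear only in the plot. Further list members were named after their values were seen.

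The contrast was fitted with limma 3.58.1 (R 4.3.3) on all 11 arrays, using each gene's row of highest mean over all arrays, genes at or above the 25th percentile of mean signal, group means only and Benjamini-Hochberg adjustment. The procedure was run on simulated data with independent normal noise for each gene. Those data lack the differing value ranges of these arrays, so the run checks the fitting steps and not the contrast in these data. Promoter sequences are from RefSeq (GRCm38.p6), which is not the build of the arrays, and no array coordinate is printed. Alternatives covered normalization, rows, the level, filters, array weights, a replicate block and each array left out.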

Additional observations from a re-analysis of the deposited data

Results flagged for a closer look

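Among the genes named here, 13 of 191 had 1 WT/WT array far from the other 3, where the gap to the nearest array, as a share of the whole range, exceeded Dixon's critical value for 4 samples. Chance flags about 1 group in 20, and of all genes above the silent-gene level 5.22% were past this value. Array 3 was the distant array for 7 of the 13. It was high for Gapdh (12.50), Ifit3 (6.22), Il4 (4.10) and Zfp346 (6.15) and low for Prf1 (9.54), Usp18 (4.45) and Ier3 (6.36). Array 4 was high for Col6a1 (6.06) and low for Rpl37a (13.49). Array 1 was high for Tigit (7.29) and Rpl13a-ps1 (8.48) and low for Mthfs (3.67), and array 2 was low for Ly6g (2.74). For Prf1, Usp18, Zfp346, Rpl37a and Ier3 all 4 arrays lay within 0.165 of each other on the log2 scale, and for Rpl13a-ps1 and Mthfs the distant array set the SD of 1.63 and 1.53. The part of depth, RNA quality or cell content in these values was not tested.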

How the results depend on the processing

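The membership of the top 30 depended on the rule for genes with several rows: 8 of 30 were shared with the mean of the rows, 11 with the median of the rows and 3 among genes named by 1 row, the last 2 settings chosen after seeing the data. Leaving out each WT/WT array in turn kept 29 to 30. Genes above the silent-gene level numbered 3860 at the 99th percentile of the receptor genes and 8964 to 9511 without 1 WT/WT array. The median SD was 0.188 to 0.207 without 1 WT/WT array and 0.144 without WT/WT arrays 1 and 4, which leaves 2 arrays (chosen after seeing the data). The difference in distance from the group mean ranged from -0.00544, without array 3, to 0.0291, and that in value range from -0.0408 to -0.0216. In the contrast with KO-host arrays, 1 gene passed under quantile normalization, the replicate block, the 50th percentile filter and array weights (Rps15a-ps2, adjusted p from 0.0303 to 0.0489), against 0 as reported and 0 to 1 without 1 array. Without WT/WT array 2 that gene was Ccl8 (-2.32, adjusted p = 0.0259). Genes at an unadjusted p under 0.05 split into 792 higher and 771 lower as reported, 465 and 1204 with arrays centred on their medians, 530 and 699 with quantile normalization, 333 and 626 with the 50th percentile filter, and 279 and 417 without arrays 1 and 4. They numbered 983 without WT/WT array 4 and 1010 without array 1, against 1563 as reported. Same-numbered arrays of different groups had deviations that correlated at -0.114 to 0.123 (10 pairs), against -0.243 to 0.182 for arrays of different number (30 pairs). Deviations from means of so few arrays cannot decide whether same-numbered arrays were handled together. Under the block 1480 genes had an unadjusted p under 0.05. The causes of these changes were not tested.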

Other observations

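Rows that name no gene hold much of the signal of these arrays. In WT/WT arrays 25013 of 87991 unnamed rows (28.4%) had a mean above the silent-gene level and 493 were over 12. Of the 30 brightest rows of the table, 20 are unnamed here and 9 name 1 gene. What these rows measure was not analysed here.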
